A study of Thermothelomyces thermophilus with 49 samples.

Results

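The genes *clr1* (MYCTH_2298863) and *clr4* (MYCTH_2296492) of the thermophilic fungus *Thermothelomyces thermophilus* were followed through 48 poly(A) RNA sequencing libraries. These are 2 of the 9292 genes of the count table and were chosen by their locus tags. In the assembly ASM22609v1, *clr1* is annotated on chromosome 1 from 8699924 to 8702395 (2472 bp) and *clr4* on the same chromosome from 4434273 to 4437501 (3229 bp). The genes are 4262423 bp apart, and no other annotated gene overlaps either of them. The parental strain MJK20.3 carries Δ*ku80*, the loss of a component of non-homologous end joining. The 3 deletion strains carry Δ*ku80* as well, together with Δ*clr1* in BS7.8, Δ*clr2* in BS6.4 and Δ*clr4* in JK2.8. Each strain is a single isolate and was grown in 2 bioreactor cultures (replicates 1 and 2). Every culture was sampled during exponential batch growth on glucose, and in the chemostat once glucose was limiting and growth steady (steady state, SS). Samples were also taken 4 times after microcrystalline cellulose replaced glucose, at 0.5 (t1), 1 (t2), 2 (t3) and 4 h (t4). With this spike the glucose feed ended and the chemostat was switched to batch mode. The effect of cellulose against steady state cannot be told apart from this switch in any strain. The paper reports that the parental and *Δclr4* cultures went on to grow on cellulose. Those of *Δclr1* and *Δclr2* did not consume it and stopped growing, so cellulose and arrest cannot be told apart there.

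Both genes encode transcription factors with a fungal Zn(2)-Cys(6) binuclear cluster, the domain by which many fungal regulators bind DNA. In *Neurospora crassa*, CLR-1 responds to cellulose or the sugars released from it, activates genes for cellulose breakdown and sugar import, and acts ahead of the second activator CLR-2. Clr4 is a later described member of the group. Earlier work reported it in *N. crassa* and *T. thermophilus* as an activator of (hemi)cellulase genes and of other regulators, Clr1 among them. A regulator of this kind can be governed by how much of its transcript is made or by the activity of the protein, and RNA sequencing measures the first of these.

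A library held 3440862 to 6404961 counts for the parental strain and 2567179 to 7182468 for *Δclr2*, against 6128696 to 16755931 for *Δclr1* and 7534029 to 22212257 for *Δclr4*. One centre sequenced the first pair of strains, from RNA that had been cleaned up and DNase-treated. A second centre sequenced *Δclr1* and *Δclr4* from RNA without these steps. Levels of *Δclr1* or *Δclr4* against the parental strain therefore cannot be told apart from a difference between centres, whereas a constant difference between centres cancels in a response within a strain. Levels are given as normalised counts per 1000000 (CPM), and a gene was called changed at an adjusted p under 0.05 in edgeR's quasi-likelihood test over 8565 genes. The p-values rest on the spread between the 2 libraries of a strain in the same state, pooled over all strains and states. The main fit has no term for the culture. A mean over the times after the spike therefore counts libraries of the same culture as independent.

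Reads on the deleted genes were near the floor. In *Δclr1*, *clr1* had 0 to 20 counts per library and 125 in all 12 libraries, a pooled level of 0.924 CPM with an exact Poisson interval of 0.769 to 1.10. This was 0.338% of the parental level. The share was larger in exponential growth, with 1.58 CPM in *Δclr1* and 48.7 CPM in the parental strain. In *Δclr4*, *clr4* had 0 to 2 counts per library and 8 in all, or 0.0517 CPM (0.0223 to 0.102), which was 0.0291% of the parental level. In the strains that carry the genes, the lowest count of a library was 96 for *clr1* and 361 for *clr4*, so neither gene came near this background in a carrier strain. These intervals cover counting error only, and the shares of the parental level compare strains across the centres.

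The largest called change of *clr1* was between exponential growth and steady state, the 2 states on glucose. In the parental strain its level was 43.4 and 54.0 CPM during exponential growth and 300.2 and 372 CPM at steady state. In *Δclr2* the exponential libraries had 41.7 and 49.5 CPM and the steady state libraries 348 and 358 CPM. In *Δclr4* the values were 38.9 and 49.3 CPM against 352 and 381 CPM. In each of these strains every exponential library lay below every other library of the strain. The share of all genes with such a separation was not counted. In RNA from a whole culture, fewer hyphae that transcribe a gene and less transcript per hypha cannot be told apart. The log2 fold change of exponential growth against steady state was -2.78 ± 0.24 (SE, n = 2 per group, edgeR adjusted p = 4.07e-11) in the parental strain, -2.94 ± 0.24 (1.54e-11) in *Δclr2* and -3.05 ± 0.23 (2.23e-12) in *Δclr4*. Of all genes tested, 41.9%, 38.4% and 47.8% were called in these comparisons. As levels rather than logs, *clr1* in exponential growth was 0.145, 0.131 and 0.121 times its steady state level. In the parental strain 4.27% of the tested genes had a lower log2 fold change.

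In the same comparison the log2 fold changes of *clr4* lay nearer to 0. Its parental level was 152 and 169 CPM in exponential growth and 175 and 208 CPM at steady state, a log2 fold change of -0.25 (95% interval -0.54 to 0.04, edgeR adjusted p = 0.161). In *Δclr1* the levels were 151 and 133 CPM against 159 and 166 CPM, a log2 fold change of -0.20 (-0.48 to 0.09, adjusted p = 0.257, 45.9% of genes called). The exponential and steady state libraries of *clr4* did not overlap in either strain, but neither difference passed the test. With 2 libraries per state, pairs can fall apart without a change, and the share of all genes that do so was not counted. In *Δclr2* the exponential libraries had 157 and 164 CPM and the steady state libraries 215 and 227 CPM, and *clr4* was called lower in exponential growth (-0.46 ± 0.14, adjusted p = 0.011). That call was lost without *Δclr2* exponential replicate 1 (-0.43, adjusted p = 0.069), without steady state replicate 2 (-0.42, 0.0685) and without either culture (-0.43, 0.137 without culture 1; -0.39, 0.185 without culture 2).

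**Figure D1:**
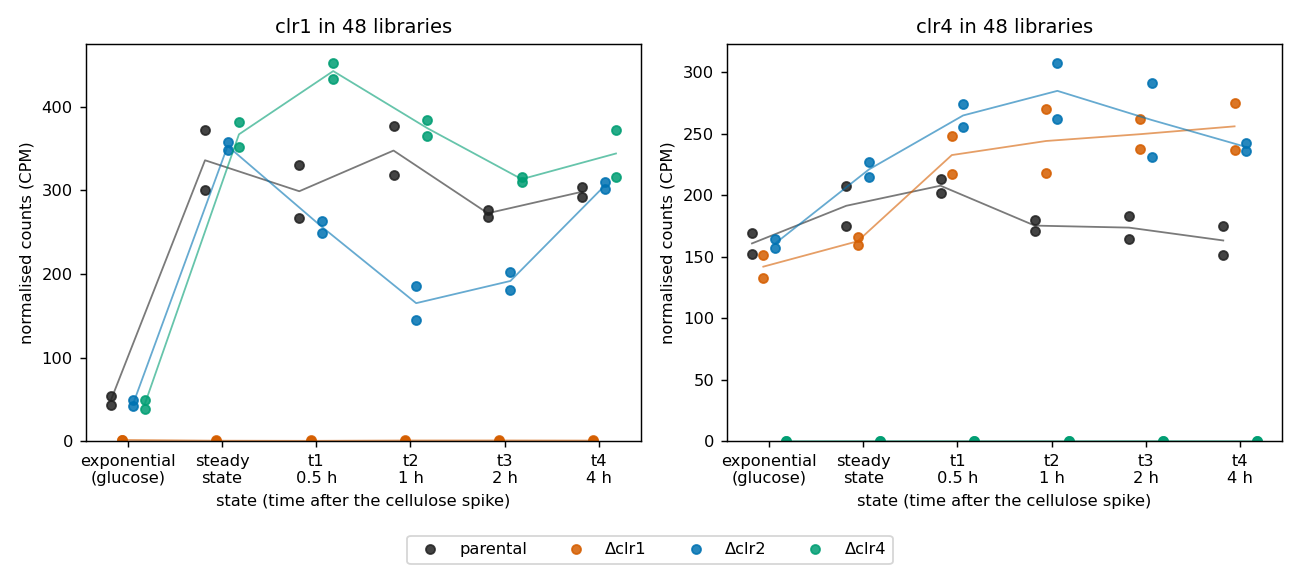
Normalised counts (CPM, vertical axis) of *clr1* (left) and *clr4* (right) in the 6 states, each point 1 library and each line the mean of the 2 libraries of a strain. The low *clr1* level in exponential growth stands apart in the 3 strains that carry the gene, and the *clr1* line of *Δclr2* dips to 165 CPM at t2.

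Among the 47 regulator orthologs of carbon metabolism and growth control listed by the study, this fall of *clr1* was near the end of the range. In the parental strain *clr1* had the second lowest log2 fold change of the 47 genes, next to *clr2*. In *Δclr2* and in *Δclr4* it had the lowest of 46 genes, leaving out the deleted one. Of the 47 orthologs, 22 were called lower and 6 higher in exponential growth of the parental strain, with a median log2 fold change of -0.44, and 19.8% of all genes were called lower and 22.1% higher with a median of 0.04. *clr4* was at rank 29 from the lowest of the 47 in the parental strain.

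**Figure D2:**
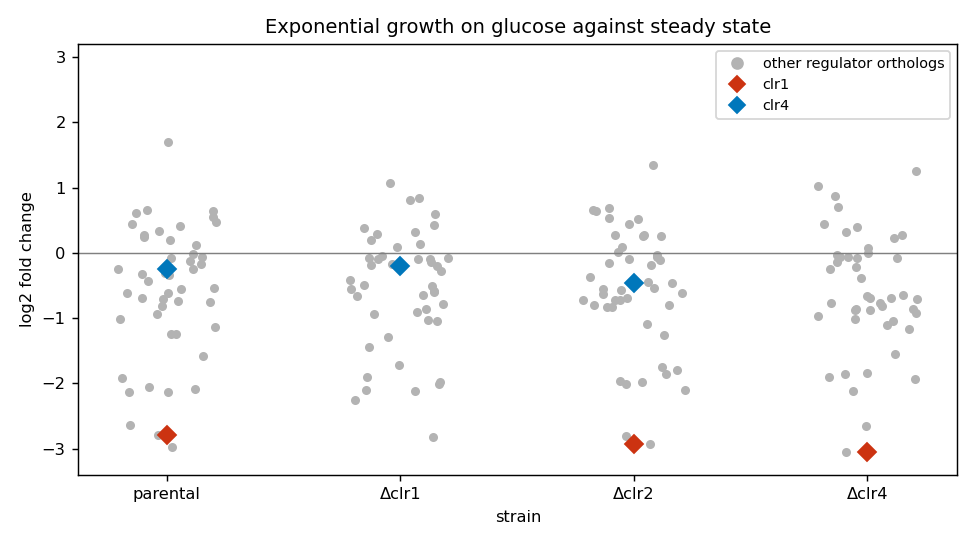
Log2 fold change of exponential growth on glucose against steady state for the regulator orthologs (grey), *clr1* (red) and *clr4* (blue) in each strain, with deleted genes left out. The *clr1* values of -2.78 to -3.05 lie at the lower end of the orthologs, and the *clr4* values of -0.20 to -0.46 lie among them.

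The shift to cellulose left both transcripts of the parental strain close to their steady state level. After the spike *clr1* was at 267 and 330 CPM at t1, 377 and 318 CPM at t2, 277 and 268 CPM at t3, and 292 and 304 CPM at t4. Apart from t3, these pairs overlap the steady state pair. The mean log2 response over the 4 times was -0.15 (95% interval -0.49 to 0.20, edgeR adjusted p = 0.54), in a comparison in which 36.6% of all genes were called. *clr4* was at 202 and 214 CPM at t1, 171 and 180 CPM at t2, 183 and 165 CPM at t3, and 152 and 175 CPM at t4. Apart from t4, these pairs overlap the steady state pair. Its mean response was -0.09 (-0.32 to 0.13, adjusted p = 0.552). Neither gene was called in the parental strain at t1, t2, t3 or t4, where 33.5%, 42.2%, 32.8% and 13.7% of all genes were, nor between successive times (16.6%, 20.0% and 12.5%). These intervals leave room for a mean change of *clr1* down to 0.711 times or up to 1.15 times, and of *clr4* between 0.801 and 1.10 times. Over steady state and the 4 times, the range of the group means was 0.35 log2 units for either gene, and 7.48% of the tested genes had a smaller range than *clr1* and 7.73% a smaller one than *clr4*. The activator gene *clr2* rose 47.6-fold (adjusted p = 7.22e-12) and *xyr1*, which encodes the xylanase regulator, 13.1-fold (5.42e-11) in the same mean response.

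Without *clr2*, the *clr1* transcript was lower than at steady state at 1 and 2 h after the spike. The level in *Δclr2* was 348 and 358 CPM at steady state, 249 and 264 CPM at t1, 145 and 185 CPM at t2, 181 and 202 CPM at t3, and 301 and 310 CPM at t4. Both libraries of t1, t2, t3 and t4 were below both steady state libraries, and t2 and t3 overlapped each other. The share of all genes that separate in this way was not counted. The fall against steady state was called at t2 (-1.09 ± 0.22, edgeR adjusted p = 8.23e-05) and at t3 (-0.88 ± 0.22, adjusted p = 0.00109), where 54.5% and 51.3% of all genes were called. It was not called at t1 (-0.46, 95% interval -0.90 to -0.02, adjusted p = 0.0817, 46.9% of genes called) or at t4 (-0.21, -0.65 to 0.23, adjusted p = 0.453, 47.4% of genes called). The t1 response was called by the Wald test of DESeq2 (-0.43, adjusted p = 0.0125) and in an edgeR fit of the compared strains alone (-0.47, 0.0127). As a fold, the level at t2 was 0.468 times that of steady state (0.343 to 0.639). The mean response was -0.66 ± 0.16 (adjusted p = 0.000956, 56.7% of genes called). The t3 call was lost without culture 1 (-0.75, adjusted p = 0.0838) or culture 2 of *Δclr2* (-0.85, 0.0517), and the mean without culture 1 (-0.55, 0.0929).

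The turning points within this course were measured less firmly. From t1 to t2 *clr1* in *Δclr2* fell by 0.63 log2 units (edgeR adjusted p = 0.0355, 21.3% of genes called), and from t3 to t4 it rose by 0.67 (adjusted p = 0.048, 8.91% of genes called). The first call was lost without either t1 library, without t2 replicate 1 and without either culture, with log2 fold changes of -0.47 to -0.75 and adjusted p of 0.0989 to 0.516 in those fits. The second was lost without any of its libraries or cultures (0.59 to 0.76, adjusted p = 0.1 to 0.417), and also with DESeq2 size factors in edgeR (0.65, 0.0518), with no filter on low counts (0.67, 0.0522) and without the exponential libraries (0.69, 0.0783). Without the exponential libraries the first call was lost as well (-0.63, 0.0607). From t2 to t3 the change was 0.21 (95% interval -0.23 to 0.66, adjusted p = 0.512, 26.9% of genes called).

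In *Δclr4* the *clr1* transcript had no called change after the spike. It was at 433 and 452 CPM at t1, above the steady state pair of 352 and 381 CPM, at 384 and 365 CPM at t2, 316 and 310 CPM at t3, and 316 and 372 CPM at t4. The response was 0.27 (95% interval -0.16 to 0.71, edgeR adjusted p = 0.334) at t1 and -0.01 (-0.35 to 0.34, adjusted p = 0.984) over the 4 times. The shares of all genes called in this strain were 39.9%, 49.3%, 37.9% and 16.8% at t1 to t4, and 43.9% over the mean.

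The *clr1* response of *Δclr2* also differed from those of the other carriers at t2. It was lower than the parental response by 1.14 log2 units (SE 0.31, edgeR adjusted p = 0.00683, 22.4% of genes called) and lower than that of *Δclr4* by 1.12 (SE 0.31, adjusted p = 0.00882, 17.9% of genes called). These differences share the *Δclr2* libraries, and the second comparison was chosen after the data had been seen. The first call was lost without parental culture 1 (-0.87, adjusted p = 0.171) or *Δclr2* culture 1 (-0.99, 0.12). The second was lost without *Δclr2* t2 replicate 1 (-0.95, 0.0647), *Δclr2* culture 1 (-0.96, 0.157) or *Δclr4* culture 1 (-1.03, 0.123). Over the mean of the 4 times the difference from the parental strain was -0.51 (95% interval -1.01 to -0.02, adjusted p = 0.108, 31.0% of genes called) and that from *Δclr4* -0.66 (-1.15 to -0.16, adjusted p = 0.0408, 27.6% of genes called). The latter call was lost in 16 of the 24 fits that left out a library or culture (-0.60 to -0.73 over the 24) and without the exponential libraries (-0.68, adjusted p = 0.0585). Between *Δclr4* and the parental strain the mean responses of *clr1* differed by 0.14 (-0.35 to 0.63, adjusted p = 0.94, 0.0467% of genes called).

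The level of *clr1* in *Δclr2*, sequenced at the same centre as the parental strain, was lower than the parental level at t2 (-1.07 ± 0.22, edgeR adjusted p = 0.000224, 39.3% of genes called). Before the spike the strains had close levels, with differences of -0.08 (95% interval -0.58 to 0.42, adjusted p = 1) in exponential growth and 0.07 (-0.37 to 0.51, adjusted p = 1) at steady state. At t3 the difference was -0.51 (adjusted p = 0.0562, but 0.00487 by the Wald test of DESeq2 and 0.00552 in an edgeR fit of the strains compared) and at t4 0.03 (adjusted p = 0.91). In *Δclr4* the level at t1 was 1.48 times the parental one (log2 0.57 ± 0.22, adjusted p = 0.0263, 56.3% of genes called), a comparison across the centres. It was lost without parental t1 replicate 1 (0.43, adjusted p = 0.193), without *Δclr4* t1 replicate 1 (0.60, 0.0554) or 2 (0.54, 0.0898), and without parental culture 1 (0.45, 0.224) or *Δclr4* culture 1 (0.60, 0.0754) or 2 (0.54, 0.116).

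**Figure D3:**
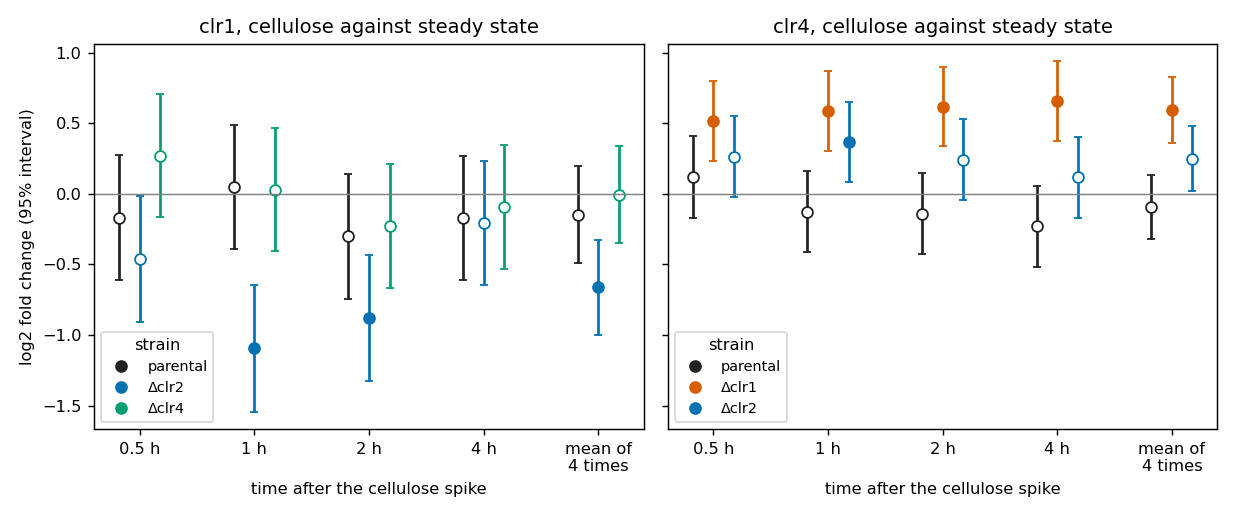
Log2 fold change of *clr1* (left) and *clr4* (right) against steady state of the same strain at each time and over the mean of the 4 times, with 95% intervals. Filled points passed an adjusted p of 0.05, as *clr1* did in *Δclr2* at 1 and 2 h and *clr4* in *Δclr1* at all 4 times.

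The *clr4* transcript rose after the cellulose spike in the strain without *clr1*. Its level in *Δclr1* was 159 and 166 CPM at steady state, 217 and 248 CPM at t1, 218 and 270 CPM at t2, 237 and 262 CPM at t3, and 237 and 275 CPM at t4. All 8 libraries after the spike were above both steady state libraries, and the 4 times overlapped each other. These libraries come from the same 2 cultures, and the share of all genes that separate in this way was not counted. The rise was called at every time after the spike, from 0.52 ± 0.14 at t1 (edgeR adjusted p = 0.00231) to 0.65 ± 0.14 at t4 (adjusted p = 0.000194), and over the mean of the 4 times (0.59 ± 0.11, adjusted p = 3.91e-05). This mean rise is a level 1.51 times that of steady state (1.29 to 1.77). In this strain 60.9% of all genes were called in the mean response and 51.5%, 54.5%, 55.1% and 54.2% at t1, t2, t3 and t4. By size, 48.8% of all genes had a larger absolute log2 fold change in the mean response than *clr4*. The calls of *clr4* in *Δclr1* were kept without any one library or culture, with mean responses of 0.52 to 0.68.

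In *Δclr2*, *clr4* was called higher at 1 of the 4 times after the spike. The level was 215 and 227 CPM at steady state, 255 and 275 CPM at t1, 262 and 308 CPM at t2, 231 and 292 CPM at t3, and 236 and 243 CPM at t4, so that every library after the spike was above both steady state libraries. The share of all genes that separate in this way was not counted. The rise was called at t2 (0.37 ± 0.14, edgeR adjusted p = 0.0265), and this call was lost without *Δclr2* steady state replicate 1 (0.33, adjusted p = 0.142) or 2 (0.41, 0.0585), t2 replicate 2 (0.32, 0.12) or culture 2 (0.38, 0.138). At t2, 54.5% of all genes were called in this strain. The mean response was 0.25 (95% interval 0.02 to 0.48, edgeR adjusted p = 0.0622, 56.7% of genes called), and 76.1% of genes had a larger absolute log2 fold change. With the culture as a replicate block in the model it was 0.24 and called (adjusted p = 0.0356), as it was with the Wald test of DESeq2 (0.31, adjusted p = 0.0175).

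The rise of *clr4* in *Δclr1* was larger than the parental response by 0.69 ± 0.16 log2 units over the mean of the 4 times (edgeR adjusted p = 0.000764, 38.5% of genes called). At single times the difference was 0.71 at t2 (adjusted p = 0.00798, 23.8% called), 0.76 at t3 (0.00353; 32.5%) and 0.88 at t4 (0.000607; 38.9%), and it was not called at t1 (0.40, 95% interval -0.01 to 0.80, adjusted p = 0.139, 27.4% called). The t2 call was lost without parental steady state replicate 2 (0.58, adjusted p = 0.0623), *Δclr1* t2 replicate 2 (0.55, 0.0679), parental culture 2 (0.62, 0.116) or *Δclr1* culture 2 (0.62, 0.0811), and the t3 call without parental culture 2 (0.55, 0.136). Against *Δclr2*, a comparison also chosen after the data had been seen, the mean response in *Δclr1* was 0.35 larger (0.03 to 0.67, adjusted p = 0.232), which was not called, and 3.92% of all genes were called in that comparison. Against the parental strain, that of *Δclr2* was 0.34 larger (0.02 to 0.66, adjusted p = 0.0999). The corresponding difference at t2 was 0.49 (adjusted p = 0.073) and was called with the culture as a replicate block (0.49, adjusted p = 0.0383).

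Levels of *clr4* in *Δclr2* were above the parental ones at t2 (0.70 ± 0.14, edgeR adjusted p = 0.000192), t3 (0.59 ± 0.14, 0.000968) and t4 (0.55 ± 0.14, 0.00159), where 39.3%, 45.8% and 49.2% of all genes were called. The t3 call was lost without *Δclr2* culture 2 (0.43, adjusted p = 0.0565) and the t4 call without parental culture 1 (0.45, 0.052). In exponential growth the levels differed by -0.0024 (95% interval -0.29 to 0.29, adjusted p = 1) and at steady state by 0.21 (-0.08 to 0.49, adjusted p = 1), in states where 0.00% and 0.0934% of all genes were called between these strains. Across the centres, *clr4* in *Δclr1* was above the parental level at t2 (0.48, adjusted p = 0.0039, 62.4% of genes called), t3 (0.52, 0.00161; 66.5%) and t4 (0.65, 0.000147; 68.8%). The t2 call was lost without *Δclr1* t2 replicate 2 (0.31, adjusted p = 0.103) or culture 2 (0.36, 0.0695).

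When the counts of the 6 states were summed per culture, *clr1* was at 224 ± 13.7 CPM in *Δclr2* and 277 ± 6.87 CPM in the parental strain (SD, n = 2), a log2 difference of -0.31 ± 0.09 (SE, edgeR adjusted p = 0.0218, 42.5% of genes called). *clr4* was at 241 ± 10.3 CPM in *Δclr2* and 180 ± 10.2 CPM in the parental strain (0.42 ± 0.08, adjusted p = 0.00323). Summed over all states, *clr1* was thus below and *clr4* above the parental level in this strain. Taken state by state, *clr1* was called lower in *Δclr2* only at t2, and *clr4* was called higher only at t2, t3 and t4. A sum gives each state the weight of its library's depth, so the spread between cultures also reflects their mix of depths. The exponential libraries, in which *clr1* was lowest, held 2567179 and 7182468 counts in *Δclr2* and 10007057 and 16523353 in *Δclr4*. The *clr1* call was lost without parental culture 1 (-0.30, adjusted p = 0.0948) or 2 (-0.26, 0.139) or *Δclr2* culture 2 (-0.25, 0.125). In *Δclr1*, *clr4* was at 211 ± 9.27 CPM (0.23 ± 0.08 above the parental strain, adjusted p = 0.0292, 72.2% of genes called), a call lost without parental culture 1 (0.18, 0.184) or 2 (0.28, 0.0504) or *Δclr1* culture 2 (0.19, 0.13). In *Δclr4*, *clr1* was at 320.1 ± 28.8 CPM (0.21 above the parental strain, 95% interval 0.01 to 0.41, adjusted p = 0.0612, 67.3% of genes called), and this difference was called without *Δclr4* culture 2 (0.33, adjusted p = 0.0167).

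In *Δclr2*, the order of the 2 transcripts by level per kilobase of gene span changed between steady state and t2. The gene span is not the length of the mature transcript, so the place of a ratio of 1 is approximate. Per kilobase of gene span, the parental strain had 0.394 ± 0.031 times as much *clr1* as *clr4* in exponential growth (SD, n = 2) and 2.29 ± 0.07 times as much at steady state. After the spike the parental libraries had ratios of 1.73 and 2.02 at t1 and of 2.88 and 2.31 at t2. In *Δclr2* the ratio was 0.371 ± 0.033 in exponential growth and 2.09 ± 0.04 at steady state. From 1.26 ± 0.01 at t1 it went to 0.754 ± 0.047 at t2. At t3 it was 0.965 ± 0.084, with libraries on both sides of 1 (1.02 and 0.906), and 1.67 ± 0.00033 at t4. At t2 both *Δclr2* libraries thus had less *clr1* than *clr4* per kilobase, and both parental libraries had more. The ratio needs no scaling between libraries, since both genes are read in the same one.

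**Figure D4:**
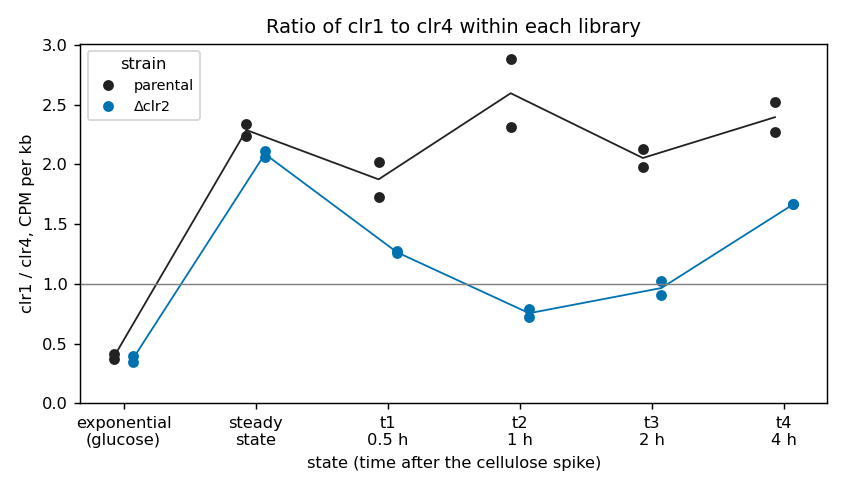
Ratio of *clr1* to *clr4*, each in CPM per kilobase of gene span, in each parental and *Δclr2* library (24 points, with lines through the means of 2). The grey line marks equal levels per kilobase. After the spike, both *Δclr2* libraries are below it at 1 h (mean 0.754). At 2 h they lie on either side of it (1.02 and 0.906, mean 0.965).

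By level per kilobase, *clr1* was among the more abundant regulator transcripts except in exponential growth. In the parental strain it had 136 ± 20.4 CPM per kilobase at steady state (SD, n = 2), rank 7 of the 47 orthologs and above 91.5% of the tested genes, and 19.7 ± 3.03 in exponential growth, rank 30. In *Δclr2* at t2 it had 66.8 ± 11.6 and rank 18 of 46. *clr4* had 49.8 to 64.4 CPM per kilobase in the 6 parental states and lay above 74.4% to 80.0% of the tested genes. Its rank among the orthologs was 9 in exponential growth and 22 at t2 and t3.

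The genes most like *clr1* shared with it mainly the contrast between exponential growth and the other states. Over the 36 libraries of the 3 carrier strains, after subtraction of each strain's mean from log2 CPM, the highest Pearson correlation of any gene with *clr1* was that of MYCTH_2303596, another predicted Zn(2)-Cys(6) regulator (r = 0.97), followed by MYCTH_2314077 (0.97) and MYCTH_2302042 (0.97). The lowest was that of MYCTH_115983 (-0.97). Among the regulator orthologs the closest were CreB (MYCTH_2055311, 0.93), VeA/Vel1 (MYCTH_2312657, 0.93) and Rca1 (MYCTH_2300719, 0.92), and Xpp1 (MYCTH_2144297) was the most opposite (-0.74). CreB is a deubiquitinase component of carbon repression in *Aspergillus*, and VeA is a regulator of development and secondary metabolism there. These values rest on the exponential libraries. Over the 30 other libraries r was 0.49 for MYCTH_2303596, 0.31 for MYCTH_2314077, 0.68 for MYCTH_2302042 and -0.55 for MYCTH_115983. Among the orthologs it was 0.12 for CreB, 0.26 for VeA/Vel1, -0.01 for Rca1 and -0.13 for Xpp1.

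For *clr4* the closest genes were MYCTH_98303 (r = 0.93), MYCTH_2302383 (0.93) and MYCTH_2302780 (0.91), and the most opposite was MYCTH_2307400 (-0.92). Among the orthologs Rce1 (MYCTH_2298696, 0.88), Stk12 (MYCTH_2297068, 0.86) and Wc1/Blr1 (MYCTH_2309330, 0.81), the last an ortholog of the white collar light regulators, were closest, and Xpp1 was the most opposite (-0.71). Subtracting strain means takes level differences between strains out of r. Mean Stk12 levels ran from 209 to 1149 CPM in *Δclr1* and from 12.9 to 32.5 CPM in the parental strain, across the centres. Without the exponential libraries r was 0.88, 0.85 and 0.83 for the 3 closest genes and -0.83 for MYCTH_2307400. It was 0.74 for Rce1, 0.72 for Stk12 and 0.71 for Wc1/Blr1, but -0.28 for Xpp1. All these points share libraries and cultures. Between *clr1* and *clr4* themselves r was 0.57 over the 24 libraries of both strains that carry them, the parental strain and *Δclr2*, and -0.33 over the 20 of them outside exponential growth.

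Of the 47 regulator orthologs, 42.6% were called in the parental mean response to cellulose, close to the 36.6% of all genes. The calls were 17 higher and 3 lower, with a median log2 fold change of 0.17, and 15.3% of all genes were called higher and 21.4% lower (median -0.06). Without parental steady state replicate 1 the count of higher orthologs was 8. With *clr2* and *xyr1*, HacA/1 (MYCTH_2310995), the regulator of the unfolded protein response, had the highest called rise (2.86 ± 0.16, edgeR adjusted p = 8.49e-16). The largest called falls were those of AmyR/BglR (MYCTH_2301920), a regulator of starch breakdown (-1.37 ± 0.10, 9.37e-13), ClbR/ClbR2/ClbR3 (MYCTH_2063030; -0.69 ± 0.14, 0.000161) and AreB (MYCTH_2309867), a GATA factor of nitrogen metabolism (-0.46 ± 0.14, 0.011). Of 46 orthologs, 21 were called higher and 11 lower in *Δclr1* (27.7% and 33.2% of all genes). The counts were 16 and 9 in *Δclr2* (26.1% and 30.6%) and 19 and 5 in *Δclr4* (18.2% and 25.7%). Without *Δclr4* steady state replicate 2 that strain's count of lower genes was 2. Of 97 tested genes with a Zn(2)-Cys(6) cluster, the class of *clr1* and *clr4*, 18 were called higher and 16 lower in the parental mean response, with a median of -0.01. The ortholog list was drawn up by the study from regulators known in other fungi and holds both genes, so its counts are not independent of the study's choice.

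The genes beside the deleted loci were read in the summed counts, since a deletion can also alter a neighbour. The 2 annotated genes on either side of *clr1* and of *clr4* were compared between *Δclr1* and *Δclr4*, which were sequenced at the same centre, and 3 of the 8 were called, where 32.4% of all genes were. MYCTH_2298860, annotated 5249 bp from *clr1*, had 170 ± 14.1 CPM in *Δclr1* and 7647 ± 345 CPM in *Δclr4* (SD, n = 2), a log2 difference of -5.49 ± 0.19 (edgeR adjusted p = 1.15e-07). In the parental strain it was at 8046 ± 207 CPM. MYCTH_2298870, on the other side of *clr1*, differed by -0.42 ± 0.10 (adjusted p = 0.0114), and this call was lost in sums without the exponential state (-0.37, adjusted p = 0.287), whereas MYCTH_110510 was called in those sums (-0.51, adjusted p = 0.0314). MYCTH_77082, a predicted GH13-CBM20 alpha-amylase gene annotated 830 bp from *clr4*, had 94.3 ± 6.11 CPM in *Δclr4* and 46.3 ± 1.68 CPM in *Δclr1* (-1.03 ± 0.08, adjusted p = 2.66e-05). It was at 52.8 ± 2.13 CPM in the parental strain and 51.1 ± 1.22 CPM in *Δclr2*.

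The low sum of MYCTH_2298860 in *Δclr1* came from the cellulose states. Its exponential level was 77.4 ± 7.71 CPM in *Δclr1* and 68.5 ± 4.64 CPM in the parental strain (SD, n = 2), and at steady state it had 304 and 298 CPM in *Δclr1* and 221 and 187 CPM in the parental strain. At t2 it had 162 and 136 CPM in *Δclr1* against 18238 and 19418 CPM in the parental strain, 867 and 1133 CPM in *Δclr2* and 18402 and 16862 CPM in *Δclr4*. The mean response of MYCTH_2298860 was 51.4-fold in the parental strain, 49.0-fold in *Δclr4*, 7.81-fold in *Δclr2* and 0.496-fold in *Δclr1*. Each was called (edgeR adjusted p = 3.59e-18, 2.38e-18, 3.27e-13 and 3.31e-06), as were 36.6%, 43.9%, 56.7% and 60.9% of all genes. What lowers this gene in *Δclr1* was not tested.

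**Figure D5:**
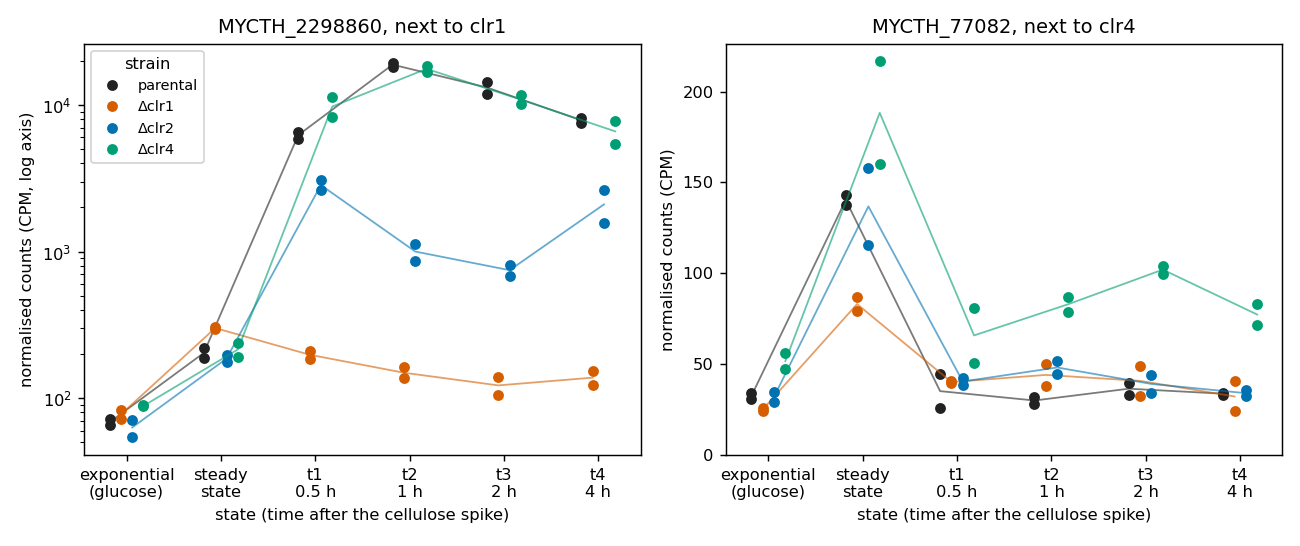
Normalised counts (CPM) of MYCTH_2298860, the gene next to *clr1* (left, log axis), and MYCTH_77082, the gene next to *clr4* (right), in each library by state and strain, with lines through the means of 2. MYCTH_2298860 is low in *Δclr1* after the spike, with 149 CPM at t2 against 18828 CPM in the parental strain.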

How the data were processed

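Poly(A) RNA of 4 strains in 6 states and 2 cultures each was sequenced by the authors (48 libraries from 49 listed samples, since the *Δclr4* t4 replicate 2 library was run on 2 flow cells and has 1 column). Reads were checked with FastQC, trimmed where needed and aligned with STAR to the ASM22609v1 genome. The counting program, its strand setting and the versions are not given in the sources used here. The deposited raw counts per gene were used. The deposited normalised counts and the authors' fold changes and p-values were not used.

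Counts were scaled by TMM and filtered with filterByExpr (minimum count 10), which kept 8565 of 9292 genes. They were tested with edgeR 4.0.16 (R 4.3.3, limma 3.58.1) by the robust quasi-likelihood F test, with 1 coefficient for each of 24 groups and 24 residual degrees of freedom. All p-values are two-sided and adjusted by Benjamini-Hochberg over all tested genes of a contrast, at 0.05. Differences between responses are interaction contrasts. Levels over all states were tested on counts summed per culture, so that each state has the weight of its library's depth. CPM are TMM-scaled counts per 1000000, log2 CPM for correlations have a prior count of 2, and gene spans for levels per kilobase come from the annotation. The script was tested on simulated counts. Replicate libraries differed by more than sampling noise (chi-square per gene 5.21 to 71.1).

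Libraries with the same number within a strain come from the same bioreactor. Their deviations from the group means had a median correlation over 15 pairs of states of 0.0396 for the parental strain, 0.0854 for *Δclr2*, 0.217 for *Δclr1* and 0.248 for *Δclr4*. The fit with the culture as a replicate block was an alternative, as were the Wald test of DESeq2 1.42.0, DESeq2 size factors, no filter, other sample sets, and leaving out each library or culture. The named genes are *clr1* and *clr4*, the 2 annotated genes on each side of each, the 3 genes most like and the 1 least like each by correlation, among all genes and among the regulator orthologs, and the 3 largest called rises and falls among the orthologs. *clr1*, *clr4* and the lists were chosen with earlier results of these data known.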

Additional observations from a re-analysis of the deposited data

Results flagged for a closer look

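The following differences between strains passed the test of the difference itself (edgeR quasi-likelihood test, Benjamini-Hochberg adjustment). The rise of *clr4* after the cellulose spike was larger in *Δclr1* than in the parental strain by 0.69 log2 units over the mean of the 4 times (adjusted p = 0.000764), by 0.71 at t2 (0.00798), by 0.76 at t3 (0.00353) and by 0.88 at t4 (0.000607). For *clr1*, the response at t2 in *Δclr2* minus that in the parental strain was -1.14 (adjusted p = 0.00683). Against *Δclr4*, a comparison chosen after the data had been seen, the *clr1* response of *Δclr2* differed by -1.12 at t2 (0.00882) and by -0.66 over the mean (0.0408), and the latter call was lost in 16 of the 24 fits that left out a library or culture and without the exponential libraries (-0.68, edgeR adjusted p = 0.0585). The t2 calls of both genes and the t3 call of *clr4* were also lost in part of the fits that left out a library or culture. The *clr4* calls at t4 and over the mean were kept in all of them. *Δclr1* and *Δclr4* were sequenced at another centre than the parental strain and *Δclr2*. A constant difference between centres cancels in these values, and one that varies with the state was not tested.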

How the results depend on the processing

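No called change of *clr1* or *clr4* changed direction under any alternative. Of 1658 alternative values for 112 results of the 2 genes, 86 had another sign than the reported value, all for values called in neither setting. The mean cellulose response of *clr4* in *Δclr2* (0.25, not called) was called with DESeq2 size factors in edgeR (0.31, adjusted p = 0.0227), with a replicate block for the culture (0.24, 0.0356) and with the Wald test of DESeq2 (0.31, 0.0175), and ranged from 0.20 to 0.35 with a library or culture left out. The mean difference of the *clr1* response between *Δclr2* and the parental strain (-0.51, not called) was called in a fit of these strains alone (-0.52, edgeR adjusted p = 0.0195) and by DESeq2 (-0.50, 0.0147). The same fits called this difference at t3 (-0.59, 0.0377 and -0.56, 0.0371). Over all states, *clr4* in *Δclr1* against the parental strain (0.23) was not called by DESeq2 (0.21, 0.0843), and *clr1* in *Δclr4* against the parental strain (0.21) was called in sums without the exponential state (0.27, edgeR adjusted p = 0.0304). The causes were not tested.

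With a library or culture left out, the mean response of *clr1* in *Δclr2* ranged from -0.68 to -0.55 and the exponential difference of *clr4* in *Δclr2* from -0.50 to -0.39. Over all states, *clr1* in *Δclr2* against the parental strain ranged from -0.37 to -0.25, *clr4* in *Δclr1* from 0.18 to 0.28 and *clr1* in *Δclr4* from 0.15 to 0.33. The number of orthologs called higher in the parental mean response ranged from 8 to 17, and that called lower in *Δclr4* from 2 to 6. The culture as a replicate block changed 1 other call of *clr1* or *clr4*, the *clr4* difference between *Δclr2* and the parental strain at t2 (0.49, edgeR adjusted p = 0.0383). Replicate numbers of different strains are different bioreactors (median correlation -0.00046 over 216 pairs). A replicate block on the number brought the *Δclr2* level differences of *clr4* at t1 (0.35, 0.0322) and of *clr1* at t3 (-0.51, 0.0386) past the threshold.

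Each strain was 1 isolate in 2 cultures. The precision is set by the spread between the 2 libraries of a group, pooled over all groups. The standard error of a response at a single time was about 0.22 log2 units for *clr1* and 0.14 for *clr4*.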
